A study of Mus musculus with 6 samples.

Results

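The unfolded protein response of the endoplasmic reticulum (ER) was followed in mouse bone marrow-derived mast cells through 33 genes for its sensors, chaperones, disulphide isomerases, degradation factors and translocation channel. The members were chosen by name, from what is known of the pathway, and each was read from the array row whose annotation gives only that symbol. Of the 33 genes, 31 had such a row, among 30102 genes named in this way on the array. The rows of Manf and Pdia4 name several genes and were not analysed here. The tested cells had received 1 µg/mL ionomycin, a calcium ionophore, in Tyrode's buffer for 1 h, followed by washes and 3 h in culture medium, so that RNA was taken 4 h after activation began. Naive cells went through the same buffer and medium without ionomycin. Both groups were primary cultures from femurs of C57BL/6J mice, matured for 6 weeks in medium with interleukin 3 and a supernatant containing stem cell factor. Each group had 3 whole-transcript arrays of total RNA, and since no label ties a replicate to its own culture or animal, p-values measure only the spread among these 6 arrays, and that spread may be technical.

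Proteins that enter the secretory pathway fold inside the ER, where chaperones, thiol oxidoreductases and sugar-binding lectins act on them. When unfolded protein builds up, the sensors IRE1 (Ern1), ATF6 and PERK start programmes that raise folding and degradation capacity, and IRE1 splices the mRNA of the transcription factor XBP1. Many ER chaperones bind calcium, and drugs that empty the ER calcium store are standard inducers of the response in cultured cells. Mast cells load their granules with proteases that pass through the ER.

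At 4 h after ionomycin, none of the 31 measured genes passed the threshold in either direction, and all of the differences were small. By limma, 0 rose and 0 fell at an adjusted p under 0.05, where 0.289% of all genes were higher and 0.0598% lower. Without adjustment, 1 member (Hspa5) was higher and 1 (Derl2) lower at a p under 0.05, where 10.2% of all genes were higher and 5.44% lower. The log2 differences, ionomycin minus naive, ran from -0.34 (Dnajc10) to 0.19 (Wfs1). Their median was -0.014, beside 0.053 over all genes, and their median size regardless of sign was 0.054, beside 0.11 over all genes. Over genes above the background level given below, the median was 0.048 and the median size 0.14. With the replicate number as a block, 0 members passed in either direction (limma), where 0.395% of all genes were higher and 0.11% lower. The block gave, at an unadjusted p under 0.05, 2 higher members (Wfs1 and Hspa5) and 3 lower (Dnajc10, Edem2 and Derl2), where 16.0% of all genes were higher and 9.41% lower. With limma's array weights, which gave the replicate 1 arrays the least weight, 2 members passed as higher (Hspa5 and Dnajb9) and 3 as lower (Dnajc10, Creld2 and Edem2), where 7.44% of all genes were higher and 5.49% lower.

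The intervals of the differences were much like those of other genes. For all 31 genes the 95% interval of the difference (limma, not adjusted for the number of genes) lay within 2-fold in both directions, and for 26 it lay within 0.5 on the log2 scale. The other 5 were Atf6, Sdf2l1, Dnajc10, Herpud1 and Wfs1, and the lowest and highest bounds were -0.77 (Atf6) and 0.66 (Sdf2l1). The moderated standard error had a median of 0.096 over the members and ran from 0.055 to 0.28. Its median was 0.085 over all genes and 0.094 over genes above background. Of all 30102 genes, 28558 had an interval within 2-fold and 23505 within 0.5. Of the 18995 genes above background, 17607 and 13200 did. Array signals come from whole cultures, so fewer cells of a type and less RNA per cell cannot be told apart.

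**Figure D1:**
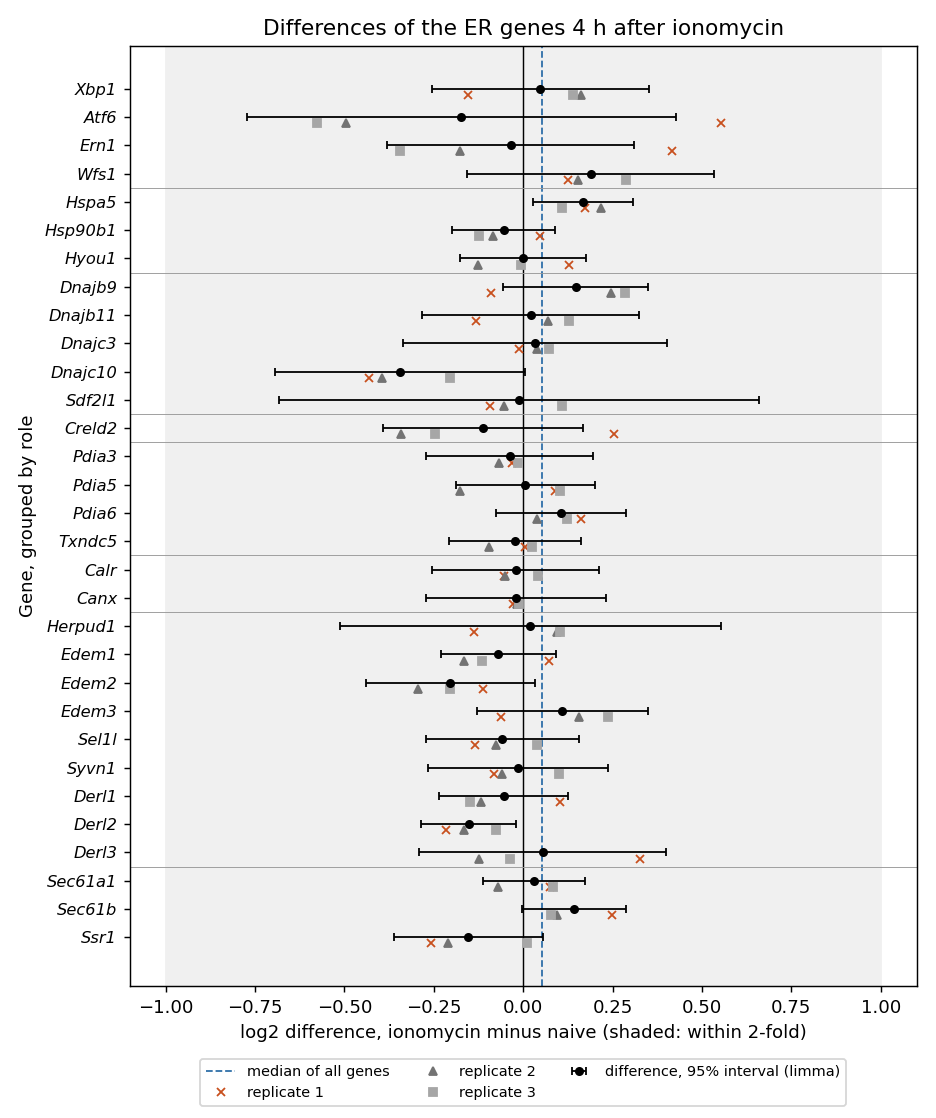
Log2 difference, ionomycin minus naive, of the 31 measured ER genes (black points, with 95% limma intervals) and the difference at each replicate number (coloured markers, 1 array against 1). The shaded band marks changes within 2-fold and holds every interval, and the dashed line is the median of all genes (0.053).

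All 31 members had a 6-array mean above the background level of 6.03 on the log2 scale, the 95th percentile of chemosensory receptor genes. All 11 measured mast cell markers, among them Kit, Fcer1a, Ms4a2 and Cpa3, were above it too, with a summed signal of 16.36 to 16.39 on the log2 scale in ionomycin arrays and 16.44 to 16.47 in naive arrays. Of the other cell types, macrophage markers were above background for 7 of 7 genes (summed signal 11.43 to 11.97 in ionomycin and 11.32 to 12.31 in naive arrays) and dendritic cell markers for 0 of 4 (7.50 to 7.57 in ionomycin and 7.33 to 7.41 in naive arrays). B and plasma cell markers were above it for 5 of 7 genes (9.23 to 9.34 in ionomycin and 9.10 to 9.16 in naive arrays). Basophil markers were above it for 3 of 4 genes (11.60 to 12.38 in ionomycin and 11.72 to 12.39 in naive arrays) and neutrophil markers for 5 of 6 (9.24 to 9.27 in ionomycin and 9.14 to 9.25 in naive arrays). Eosinophil markers were above it for 2 of 4 genes (8.26 to 8.48 in ionomycin and 7.983 to 7.999 in naive arrays), and T and NK cell markers for 4 of 6 (9.11 to 9.34 in ionomycin and 8.77 to 8.86 in naive arrays). The summed signals of the eosinophil, dendritic, B and plasma, and T and NK lists were higher in all ionomycin than in all naive arrays. That of the mast cell list was lower. Of single genes on the array, 18.9% were higher and 7.31% lower without overlap, and 64.6% had positive differences. Of single markers 0 passed (limma), where 0.289% of all genes were higher and 0.0598% lower. The smallest adjusted p-values were those of Siglecf in the eosinophil list (0.56, limma adjusted p = 0.0718) and Ncr1 in the T and NK list (0.90, 0.0794). The mast cell list was not uniform, with Hdc at 1.04 and Ms4a2 at -0.62 (limma adjusted p = 0.180 and 0.163). The part of other cells in the ER genes' signals was not tested. Replicate 1 lay apart from the other arrays within each group, at -21.2 (ionomycin) and -48.0 (naive) on a first principal component that held 52.6% of the variance, with the others between 13.0 and 21.9.

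The sensors and regulators did not move as a group. Ern1 encodes IRE1, the membrane kinase and RNase, and had log2 signals of 9.71, 9.32 and 9.25 in ionomycin replicates 1, 2 and 3, against 9.29, 9.50 and 9.59 in naive replicates 1, 2 and 3. The naive arrays lay within the range of the ionomycin arrays, and the difference was -0.035 ± 0.14 (SE, limma adjusted p = 0.908). Xbp1, the transcription factor whose mRNA IRE1 splices, had 10.86, 11.30 and 11.25 in ionomycin arrays, against 11.01, 11.14 and 11.11 in naive arrays. Ionomycin replicate 1 was the lowest of the 6 arrays and the other ionomycin arrays were the highest, and the difference was 0.048 ± 0.12 (SE, limma adjusted p = 0.854). The row gives 1 value for the gene, so spliced and unspliced Xbp1 mRNA were not told apart.

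Atf6, a transcription factor held in the ER membrane until stress releases it, had 9.89, 9.71 and 9.67 in ionomycin arrays, against 9.33, 10.20 and 10.24 in naive arrays. Naive replicate 1 was the lowest array and the other naive arrays were the highest, so the groups overlapped and the difference of -0.17 ± 0.25 did not pass (SE, limma adjusted p = 0.735). The differences at replicates 1, 2 and 3 were 0.55, -0.49 and -0.58. Without both replicate 1 arrays Atf6 was lower by 0.54 on the log2 scale (log2 difference -0.54, limma adjusted p = 0.0191), and it was then the 1 member past the threshold, where 1.41% of all genes were higher and 1.43% lower. Whether the response of Atf6 differed between replicate 1 and the others was not tested. Wfs1 encodes wolframin, an ER membrane protein, and had 7.90, 8.25 and 8.33 in ionomycin arrays, against 7.77, 8.10 and 8.04 in naive arrays. Wfs1 was higher in ionomycin at each replicate number, by 0.13, 0.15 and 0.29, but the groups overlapped through ionomycin replicate 1 (difference 0.19 ± 0.14 SE, limma adjusted p = 0.515, and 0.160 with the replicate block).

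Hspa5 encodes BiP (GRP78), the HSP70 chaperone of the ER lumen whose induction is the usual readout of the response. Its log2 signals were 12.11, 12.10 and 12.13 in ionomycin arrays, against 11.94, 11.88 and 12.02 in naive arrays. All ionomycin arrays lay above all naive arrays, by a small margin. The difference was 0.17 ± 0.058 (SE), a 1.12-fold change with a 95% interval of 1.02 to 1.24, and did not pass over all genes (limma adjusted p = 0.276, and 0.164 with the replicate block). Hspa5 was higher at each replicate number, by 0.17, 0.22 and 0.11, and by 0.16 without both replicate 1 arrays (limma adjusted p = 0.250). Its difference was 0.090 after quantile normalization and 0.072 after centring each array on its median (limma adjusted p = 0.708 and 0.551).

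Hsp90b1 encodes GRP94, the HSP90 of the ER, and had 12.49, 12.40 and 12.43 in ionomycin arrays, against 12.44, 12.49 and 12.56 in naive arrays. The groups overlapped, with a difference of -0.054 ± 0.060 (SE, limma adjusted p = 0.655) and a 95% interval of 0.87 to 1.06-fold. Hyou1, the GRP170 exchange factor of BiP, differed by -0.0013 ± 0.073 (SE, limma adjusted p = 0.994), with means of 10.29 in both groups.

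ATF6 and XBP1 act together with the factor NF-Y through the ER stress response element in promoters. That element (ERSE), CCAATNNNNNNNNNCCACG, was searched on both strands of the 300 bases around each RefSeq start site (250 before and 50 after, build GRCm38.p6), which were at hand for 27 of the 31 measured members and not for Atf6, Hyou1, Derl1 and Sec61a1. It matched in 9 of the 27 members (33.3%), against 0.137% of the 27025 genes with a promoter and 0.119% of all 32851 promoters. The matches are shown because they are a feature that these 9 members share outside their expression. Both the element and the members were taken from what is known of the same pathway, so the contrast is not a test. Capitals mark the fixed bases, each match is read along its own strand, and positions are on GRCm38.p6.
Hspa5 (chr2:34772025-34772043, plus strand): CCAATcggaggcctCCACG
Hsp90b1 (chr10:86705638-86705656, minus strand): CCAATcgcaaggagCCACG
Hsp90b1 (chr10:86705533-86705551, plus strand): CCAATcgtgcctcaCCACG
Dnajc3 (chr14:118937827-118937845, plus strand): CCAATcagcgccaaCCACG
Creld2 (chr15:88819520-88819538, minus strand): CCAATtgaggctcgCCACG
Pdia6 (chr12:17266491-17266509, plus strand): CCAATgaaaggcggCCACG
Calr (chr8:84847075-84847093, plus strand): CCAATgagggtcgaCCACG
Canx (chr11:50325800-50325818, minus strand): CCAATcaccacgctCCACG
Syvn1 (chr19:6046532-6046550, plus strand): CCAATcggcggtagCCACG
Derl3 (chr10:75893242-75893260, minus strand): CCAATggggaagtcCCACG

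In Hspa5 the match ended 47 bases before the start site, and in Hsp90b1 the matches ended 194 and 89 bases before it. The 250 bases before the start are shown for both genes, from RefSeq, along the gene's strand and with ERSE matches in capitals (the match of Hsp90b1 nearer to the start lies on the opposite strand and reads as its reverse complement).
Hspa5 (chr2:34771840-34772089, plus strand): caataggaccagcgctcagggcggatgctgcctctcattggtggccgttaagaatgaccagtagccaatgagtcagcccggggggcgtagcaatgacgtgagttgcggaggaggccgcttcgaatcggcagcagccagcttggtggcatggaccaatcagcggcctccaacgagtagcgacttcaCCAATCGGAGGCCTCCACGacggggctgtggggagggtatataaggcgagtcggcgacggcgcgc
Hsp90b1 (chr10:86705445-86705694, minus strand): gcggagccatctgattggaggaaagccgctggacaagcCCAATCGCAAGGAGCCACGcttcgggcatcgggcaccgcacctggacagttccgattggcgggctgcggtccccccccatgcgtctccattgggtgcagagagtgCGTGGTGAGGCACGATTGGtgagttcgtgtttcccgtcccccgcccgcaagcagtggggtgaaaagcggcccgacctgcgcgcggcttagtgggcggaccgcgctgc

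The 9 members with an ERSE differed by -0.11 (Creld2) to 0.17 (Hspa5) on the log2 scale, with a median of -0.014, and 0 of them passed (limma, adjusted p under 0.05, where 0.289% of all genes were higher and 0.0598% lower). Without adjustment 1 of the 9, Hspa5, was higher at a p under 0.05, near the 10.2% of all genes. ERSE-II, ATTGGNCCACG, matched in Dnajb11 and Herpud1, against 0.0444% of all genes with a promoter. The core of the unfolded protein response element, TGACGTGG, matched in Txndc5, against 0.714% of genes. Read on the other strand, its letters share CCACG with ERSE, which had no match in Txndc5. The CARE element bound by ATF4, TGATGNAA, matched in Txndc5 and Herpud1, against 4.51% of genes. The CCAAT box alone, which is part of ERSE, matched in 19 of 27 members and in 41.1% of genes. A match describes the letters of these windows and is not a measured binding site.

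Among the cochaperones of BiP, Dnajb9 and Dnajc10 had the largest differences. Dnajb9, which encodes the J-domain protein ERdj4, had 10.65, 10.80 and 10.82 in ionomycin arrays, against 10.75, 10.55 and 10.54 in naive arrays. Dnajb9 was lower at replicate 1 (-0.09) and higher at replicates 2 and 3 (0.25 and 0.28), for a difference of 0.15 ± 0.084 (SE, limma adjusted p = 0.406). Dnajc10, the disulphide reductase ERdj5, had 8.99, 8.72 and 8.72 in ionomycin arrays, against 9.42, 9.12 and 8.92 in naive arrays. At each replicate number Dnajc10 was lower in ionomycin, by differences of -0.43, -0.40 and -0.20, and the groups overlapped only in that ionomycin replicate 1 lay above naive replicate 3. Its difference of -0.34 ± 0.14 was the largest of the members in size, a ratio of 0.79, and did not pass (SE, limma adjusted p = 0.322, and 0.106 with the replicate block).

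Dnajb11 (ERdj3, a J-domain partner of BiP) and Dnajc3 (p58IPK, another J-domain protein) differed by 0.022 and 0.033 (limma adjusted p = 0.937 and 0.920). Sdf2l1, a partner of ERdj3, was chosen for mention after its values were seen. It had 10.54, 9.88 and 9.89 in ionomycin arrays, against 10.64, 9.93 and 9.79 in naive arrays. In both groups replicate 1 stood above the others, by 0.66 in ionomycin and 0.78 in naive arrays, while the groups differed by -0.013 ± 0.28 (SE, limma adjusted p = 0.983). Creld2, a secreted ER stress protein, differed by 0.25 at replicate 1 and by -0.34 and -0.25 at replicates 2 and 3 (mean -0.11 ± 0.12 SE, limma adjusted p = 0.637).

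The disulphide isomerases and lectin chaperones lay close to no difference. Pdia3 (ERp57, which works with the lectin chaperones), Pdia5, Pdia6 and Txndc5 (ERp46) differed by -0.037 to 0.11, of which Pdia6 was the highest (limma adjusted p = 0.485). Calr and Canx encode calreticulin and calnexin, which hold newly made glycoproteins. Calr averaged 12.51 ± 0.11 in ionomycin and 12.53 ± 0.14 in naive arrays (log2 signal, SD, n = 3), and Canx 12.11 ± 0.14 in ionomycin and 12.13 ± 0.14 in naive arrays. Their 95% intervals were 0.84 to 1.16-fold for Calr and 0.83 to 1.17-fold for Canx.

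Of the 9 degradation genes, 3 had positive and 6 negative differences (66.7% negative, beside 35.4% of all genes and 41.1% of genes above background). None passed (limma), where 0.289% of all genes were higher and 0.0598% lower. Of the 3 positive ones, Herpud1 and Derl3 turned negative after quantile normalization (-0.070 and -0.018) and after centring (-0.075 and -0.040). Of the 6 negative ones, Syvn1 turned positive after quantile normalization. Centring lowered the differences of all genes by the same amount, so the shares of all genes above hold only for the values as deposited. Derl2 alone had an unadjusted p under 0.05, 1 of 9 genes, where 5.44% of all genes were lower. Derl2 encodes a derlin, a membrane protein of the retrotranslocation machinery. It had 7.57, 7.57 and 7.62 in ionomycin arrays, against 7.79, 7.74 and 7.69 in naive arrays. All ionomycin arrays lay below all naive arrays, with a difference of -0.15 ± 0.055 (SE), a ratio of 0.90 (limma adjusted p = 0.286, and 0.192 with the replicate block). Its relative Derl1 differed by -0.054 and Derl3 by 0.055, with Derl3 at 7.41 in ionomycin replicate 1 and 7.08 in naive replicate 1, against 7.47 to 7.60 in the other 4 arrays.

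Edem2, which helps trim mannose from misfolded glycoproteins, had 9.36, 9.51 and 9.46 in ionomycin arrays, against 9.47, 9.81 and 9.66 in naive arrays. It was lower in ionomycin at each replicate number, by differences of -0.11, -0.29 and -0.20, and the groups overlapped only through naive replicate 1 (mean -0.20 ± 0.098 SE, limma adjusted p = 0.350, and 0.151 with the replicate block). Its relatives Edem1 and Edem3 differed by -0.070 and 0.11. Sel1l and Syvn1, the core of the HRD1 ubiquitin ligase complex, differed by -0.058 and -0.014. Herpud1, a stress-induced partner of that complex, had 11.32, 10.91 and 10.85 in ionomycin arrays, against 11.45, 10.82 and 10.75 in naive arrays. As for Sdf2l1, replicate 1 was the highest array of each group, and the groups differed by 0.020 ± 0.22 (SE, limma adjusted p = 0.967).

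Of the translocation genes, Sec61b, the small subunit of the protein channel, had 8.15, 8.03 and 8.02 in ionomycin arrays, against 7.90, 7.93 and 7.94 in naive arrays. The groups did not overlap, with a difference of 0.14 ± 0.060 that did not pass (SE, limma adjusted p = 0.327). The channel's main subunit gene Sec61a1 differed by 0.029 and Ssr1, of the translocon-associated complex, by -0.15 (limma adjusted p = 0.811 and 0.400). Over all members the groups did not overlap for 3 genes, with Hspa5 and Sec61b higher and Derl2 lower, where 18.9% of all genes were higher and 7.31% lower without overlap. The number of genes higher at all 3 replicate numbers was 4 (12.9%, beside 35.8% of all genes), the number lower at all 3 was 5 (16.1%, beside 16.8% of all genes), and 22 had mixed signs (71.0%, beside 47.5%). Of genes above background, 35.5% were higher at all 3, 23.0% were lower at all 3 and 41.4% had mixed signs.

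**Figure D2:**
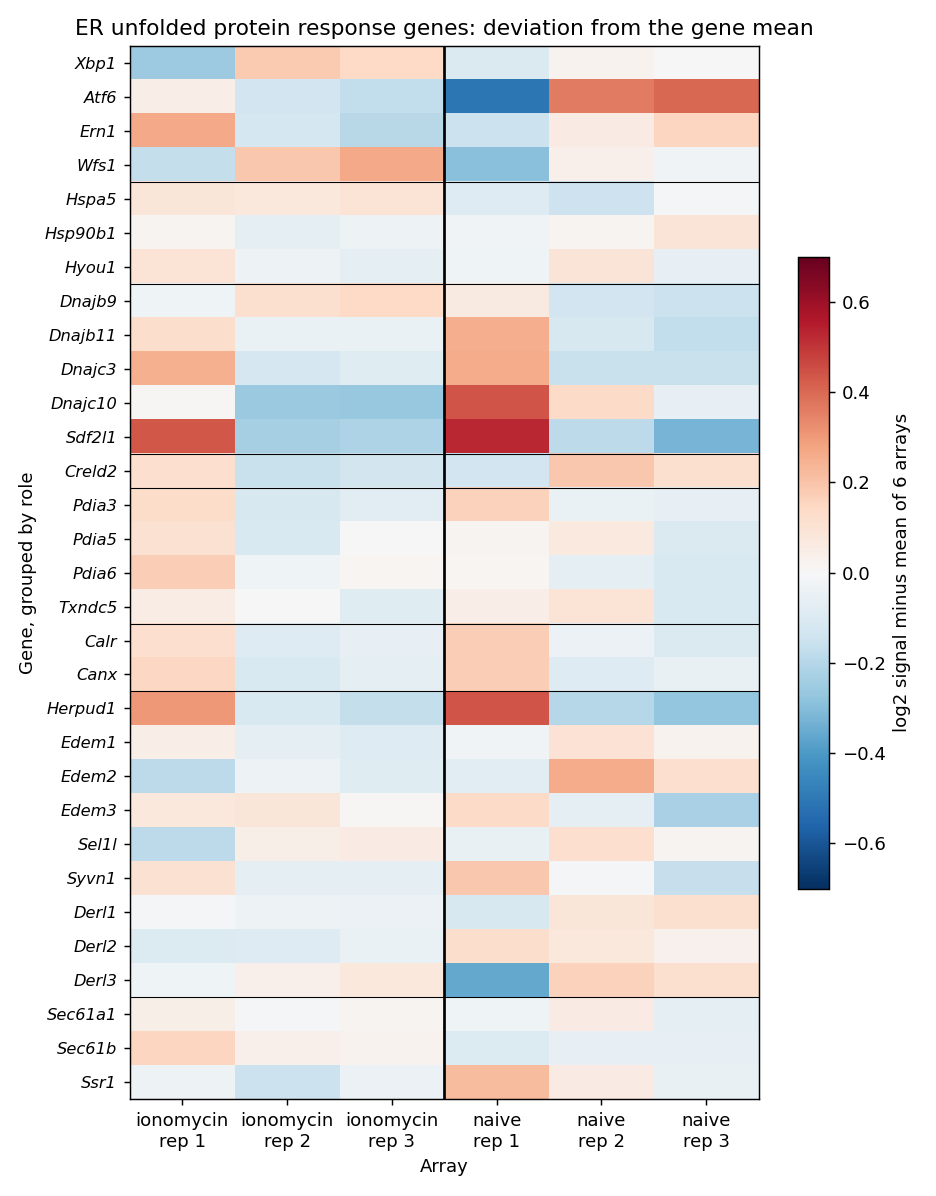
Log2 signal of each of the 31 ER genes minus its own mean over the 6 arrays (colour, rows grouped by role), with the 3 ionomycin arrays left of the 3 naive arrays. Sdf2l1 and Herpud1 are highest in replicate 1 of both groups, and Atf6 is lowest in naive replicate 1 and highest in naive replicates 2 and 3.

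For most members the gap between replicate 1 and the other replicates was larger than the gap between ionomycin and naive cells. Averaged over both groups, the size of the replicate 1 gap exceeded that of the treatment difference in 25 of 31 members. The same held for 17642 of 30102 genes on the array and for 10891 of the 18995 above background. A gap of 1 array against 2 varies more than a difference of 3 arrays against 3, and its sign was ignored. A larger gap is therefore common without any replicate effect, and the count says nothing of one. In 11 members (35.5%) replicate 1 was above the other arrays in both groups, beside 18.2% of all genes and 24.9% of genes above background. In 5 (16.1%) it was below them in both, beside 34.1% of all genes and 34.8% of genes above background. The 11 were Sdf2l1, Herpud1, Dnajc3, Dnajc10, Dnajb11, Syvn1, Canx, Calr, Ssr1, Pdia3 and Pdia6, which include 4 of the 5 cochaperones and both lectin chaperones. The 5 were Xbp1, Wfs1, Sel1l, Edem2 and Derl3. In 14 members (45.2%) the difference at replicate 1 had the opposite sign to that at replicates 2 and 3, beside 15.5% of all genes and 14.0% of genes above background. Of these, 8 were higher at replicate 1 and lower at the others (Atf6, Ern1, Hsp90b1, Hyou1, Creld2, Edem1, Derl1 and Derl3), and 6 ran the other way (Xbp1, Dnajb9, Dnajb11, Dnajc3, Herpud1 and Edem3). These shares describe the arrays and were not tested, and the labels do not say how replicate 1 was handled.

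**Figure D3:**
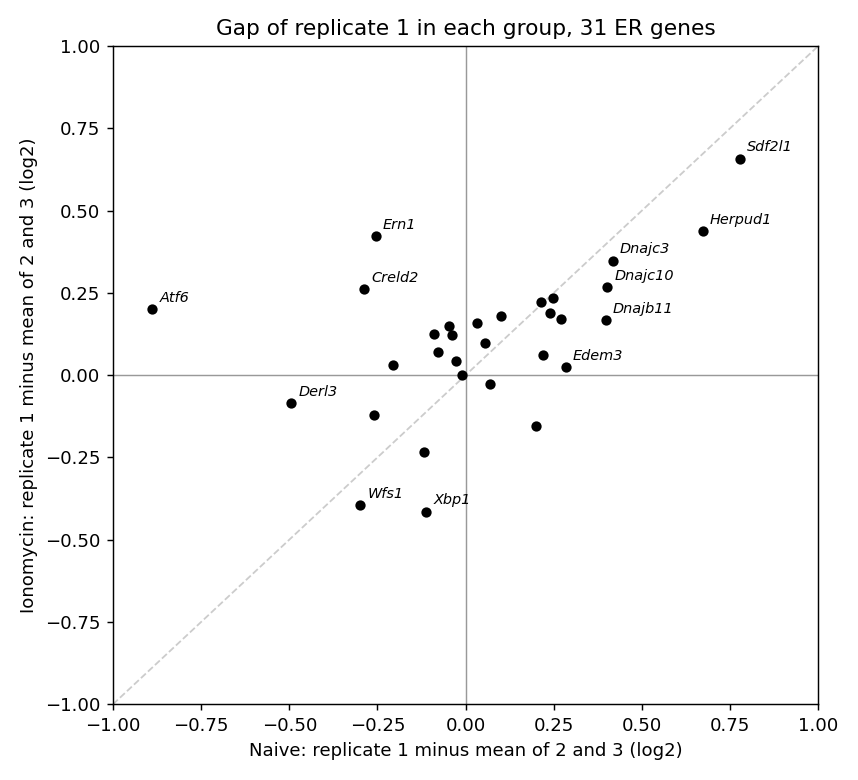
Gap of replicate 1 to the mean of replicates 2 and 3 (log2) in ionomycin arrays (vertical axis) and naive arrays (horizontal axis) for the 31 ER genes, 1 point a gene, with the dashed line marking equal gaps. Sdf2l1 (0.66 in ionomycin and 0.78 in naive) lies at the upper right, and Atf6 (0.20 in ionomycin and -0.89 in naive) lies far to the left.

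The cytosolic relatives of the ER chaperones were set beside them. Hspa1a, a stress-inducible HSP70, had 13.73, 13.77 and 13.69 in ionomycin arrays, against 9.97, 10.96 and 10.90 in naive arrays, a difference of 3.12 ± 0.26 (SE, limma adjusted p = 0.0153). Hsph1, an HSP110 exchange factor, rose by 2.19, Dnajb1, an HSP40, by 1.38 and Hsp90aa1, an inducible HSP90, by 0.73 (limma adjusted p = 0.0153, 0.0340 and 0.0153). With the replicate block Hspa1a, Hsph1 and Hsp90aa1 passed and Dnajb1 did not (limma adjusted p = 0.0604). The row of Hspa1a cannot be told apart from its near-identical neighbour Hspa1b.

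Within each array the log2 ratio of the ER gene to its cytosolic relative was lower in ionomycin arrays for all 4 pairs compared. The ratio of Hspa5 to Hspa1a changed by -2.96, that of Hyou1 to Hsph1 by -2.19, that of Dnajb11 to Dnajb1 by -1.36 and that of Hsp90b1 to Hsp90aa1 by -0.79. Each ratio was lower at all 3 replicate numbers and the groups did not overlap (exact two-sided permutation p = 0.1 for each pair and 0.1 adjusted over the 4 pairs, the smallest that 3 arrays against 3 allow). Such a ratio shows unequal change of the genes and says nothing of their relative levels. The 4 relatives had already passed as higher (limma), by 0.73 to 3.12, while the 4 ER genes differed by -0.054 to 0.17. The direction of each ratio therefore restates the rise of the relative and adds no separate support.

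**Figure D4:**
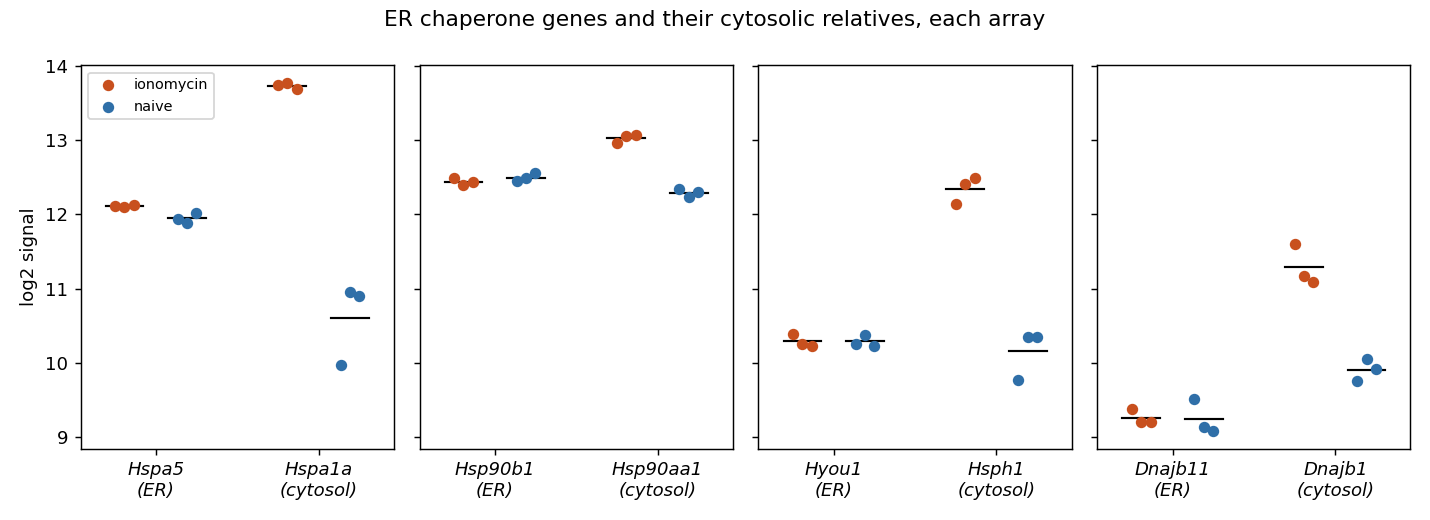
Log2 signal of 4 ER chaperone genes and their cytosolic relatives in each array (points, 3 ionomycin arrays left of 3 naive arrays for each gene), with group means as bars. The ionomycin points of Hspa1a, Hsp90aa1, Hsph1 and Dnajb1 lie above all their naive points, while those of Hsp90b1, Hyou1 and Dnajb11 overlap with them and those of Hspa5 lie 0.17 higher on average; heights of different genes are not comparable.

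Other genes of the pathway were read in 7 lists of 120 genes, of which 109 were measured. By limma, 1 rose (0.917%) and 0 fell at an adjusted p under 0.05, beside 0.289% and 0.0598% of all genes. Without adjustment 7 were higher (6.42%) and 6 lower (5.50%) at a p under 0.05, beside 10.2% and 5.44% of all genes. Without both replicate 1 arrays 5 rose (4.59%) and 2 fell (1.83%), beside 1.41% and 1.43% of all genes. The gene that rose was Ppp1r15a (GADD34), which recruits a phosphatase to eIF2 and so reverses PERK's signal. It had 9.54, 9.42 and 9.35 in ionomycin arrays, against 8.72, 8.85 and 8.84 in naive arrays. The groups were well apart, with a difference of 0.63 ± 0.075 (SE, limma adjusted p = 0.0417), which did not pass with the replicate block (0.0683) and did without both replicate 1 arrays (0.0196).

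The list of Ppp1r15a, the PERK arm and ATF4 targets, was the only 1 of the 7 with a median above that of all genes, at 0.14 over 13 measured genes, of which 10 had positive differences (76.9%, beside 64.6% of all genes). Other genes of this list, chosen after their values were seen, passed without both replicate 1 arrays: Chac1, a glutathione-degrading enzyme (0.83), Asns, asparagine synthetase (0.60), and Nupr1, a stress-induced nuclear protein (0.85), with limma adjusted p = 0.00708, 0.0187 and 0.0114. Over all 6 arrays their differences were 0.48, 0.66 and 1.32 (limma adjusted p = 0.385, 0.208 and 0.275). Ddit3 (CHOP) and Atf4, the transcription factors of this arm, differed by -0.33 and 0.11, and Eif2ak3, which encodes PERK, by -0.070 (limma adjusted p = 0.578, 0.728 and 0.793). For Ddit3 ionomycin replicate 1 was the lowest array at 10.38, against 11.22 in naive replicate 1 and 11.38 to 11.54 in the other 4 arrays.

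In the other 6 lists 0 genes passed (limma), where 0.289% of all genes were higher and 0.0598% lower. The medians of these lists lay between -0.060 and 0.010. Among the 11 sensor-processing and ER-bound transcription factor genes, Creb3l3 was at 0.20, and Nfya, a subunit of NF-Y, at -0.25 (limma adjusted p = 0.277 and 0.288). Among 20 genes of oxidative folding and prolyl isomerization, Cnpy2 was at -0.30, Fkbp11, a peptidyl-prolyl isomerase, at 0.40 and Txndc11 at -0.28 (limma adjusted p = 0.242, 0.270 and 0.314). Without both replicate 1 arrays Fkbp11 passed as higher and Hspa13, an HSP70 relative, as lower (limma adjusted p = 0.0427 and 0.0308). Among 16 genes of glycan processing, the glucosidase gene Mogs was at -0.21, the mannosidase gene Man1b1 at -0.25 and the cargo receptor gene Lman1 at 0.13 (limma adjusted p = 0.267, 0.269 and 0.317).

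Of the 14 genes of membrane extraction and ubiquitination, 0 had an unadjusted p under 0.05 (limma). On the whole array 10.2% of genes reached that level with a rise and 5.44% with a fall. A count of 0 in so short a list therefore does not set it apart from other genes. The differences of these 14 genes ran from -0.17 to 0.11. Among 20 translocon, signal peptidase and signal recognition genes, Srp14 was at 0.22 and Tram2 at -0.63 (limma adjusted p = 0.182 and 0.322). Tram2 passed as lower without both replicate 1 arrays (limma adjusted p = 0.0294). Among 15 COPII coat and KDEL receptor genes, Kdelr1, a receptor that returns ER chaperones from the Golgi, was at -0.14, and Sec13 at 0.19 (limma adjusted p = 0.316 and 0.328).

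**Figure D5:**
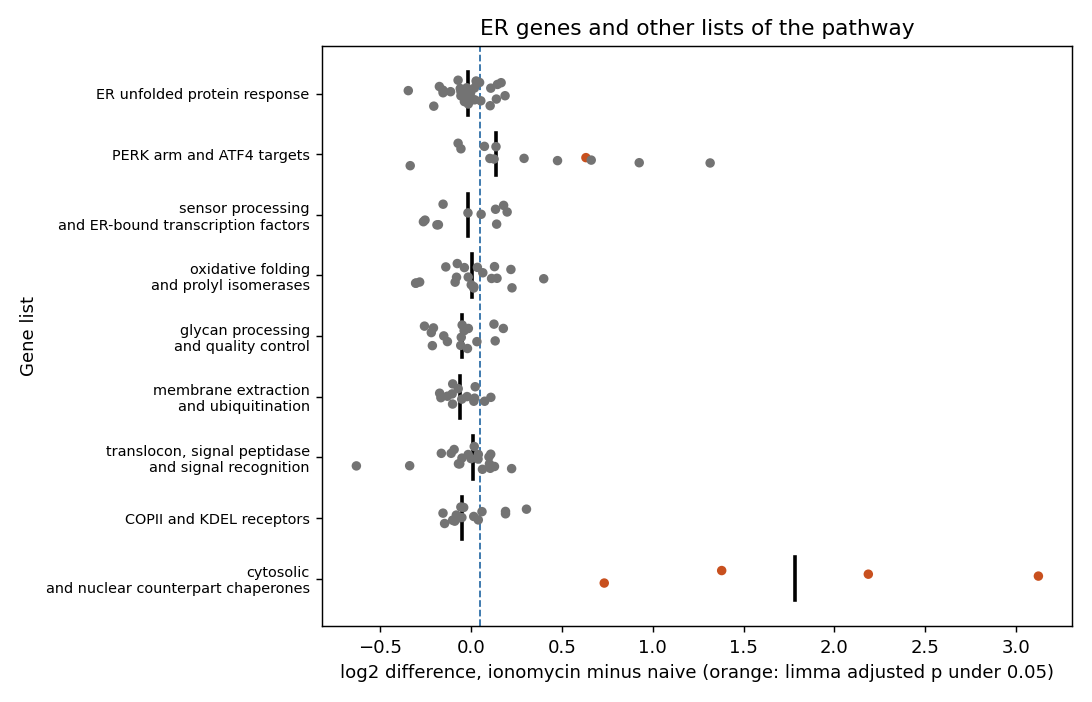
Log2 difference, ionomycin minus naive, of each gene in the ER unfolded protein response, the 7 other lists of the pathway and the 4 cytosolic chaperones (points, orange where limma's adjusted p is under 0.05), with the list median as a bar and the median of all genes dashed. Ppp1r15a (0.63) and the 4 cytosolic chaperones (0.73 to 3.12) are the genes past the threshold.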

How the data were processed

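The authors' processed log2 signals of 6 arrays, 65770 rows with 0 missing values, were used as deposited. The package oligo is named, per the submitters' processing notes; version, summarization, normalization and build are not stated in the sources used here. The values (3.01 to 14.6) fit a log2 scale; array medians were 5.96, 6.03 and 6.03 (ionomycin) and 5.88, 5.95 and 5.99 (naive), and whether arrays were centred is unknown. Rows were named through the platform annotation: 30439 had 1 symbol, 2146 several and 33185 none; 827 symbols were updated by Entrez ID with RefSeq (GRCm38.p6). The row with the highest mean was kept per gene. Groups and replicate numbers come from the titles.

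Groups were set against each other with lmFit and eBayes of limma 3.58.1 under R 4.3.3 (two-sided). Adjusted p-values are limma's, by Benjamini-Hochberg over all 30102 genes, and a call needs one under 0.05. Ratios were tested by exact permutation (SciPy 1.17.1). The fit was tested on simulated data with independent arrays and added changes larger than any member's difference. That test does not cover the replicate 1 gap or differences as small as those of the members. Deviations from the group means of same-numbered arrays correlated across genes at 0.711, 0.476 and 0.469, so the block is given beside results; numbers 2 and 3 correlated as well when crossed (0.524 and 0.481). Members, lists, tests and alternatives were chosen with earlier results of these data known. Values per array are given for members with an unadjusted p under 0.05 in either fit, the 3 largest rises and falls, the sensors Ern1, Atf6 and Xbp1, Hspa5 and Hsp90b1; other lists name up to 3 genes that passed or, failing that, had the smallest p. Genes named outside this rule were chosen after their values were seen. The precision is limited by the number of arrays.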

Additional observations from a re-analysis of the deposited data

How the results depend on the processing

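The count of members past the adjusted threshold stayed at 0 in each direction (limma) with the replicate block, a block that sets replicate 1 against the others, quantile normalization, centring, dim genes left out, the trend and robust options of eBayes, the mean of a gene's rows and each fit without 1 array. The fits without 1 array could say little of this, since they called few of the 30102 genes: with an ionomycin array left out 35 (replicate 1), 1 (replicate 2) and 7 (replicate 3) higher and 0 lower in each, and with a naive array left out 95 (replicate 1), 13 (replicate 2) and 8 (replicate 3) higher against 55, 0 and 1 lower. The exceptions were array weights (2 higher and 3 lower) and leaving out both replicate 1 arrays (0 higher and 1 lower, Atf6). The weights ran from 0.25 for naive replicate 1 to 3.44 for ionomycin replicate 2. At the adjusted threshold the block of replicate 1 against the others called 2.25% of all genes higher and 2.47% lower. The replicate block called 0.395% and 0.11%, quantile normalization 0.243% and 0.0831%, and centring 0.286% and 0.365%. The eBayes options called 0.259% and 0.0299%, and the mean of a gene's rows 0.282% and 0.0532%. With dim genes left out 0.484% and 0.1% of 18995 genes were called. A count of 0 members is near each of these shares. At an unadjusted p under 0.05, where 1 was higher and 1 lower, the counts were 2 and 3 with the replicate block (16.0% and 9.41%), 3 and 3 with the block of replicate 1 against the others (18.4% and 10.9% of all genes), 0 and 0 with trend and robust options (10.7% and 4.78%), and 3 and 5 without both replicate 1 arrays (12.0% and 10.2%). Quantile normalization gave 1 higher and 3 lower (5.93% and 6.76% of all genes), centring 0 and 7 (3.33% and 12.2%) and array weights 4 and 8 (23.9% and 12.6%). Without 1 array they ranged from 0 to 3 higher and from 0 to 3 lower (5.5% to 11.1% and 3.55% to 7.54% of all genes). The members' median of -0.014 was -0.11 after centring, and without 1 array it ranged from -0.070 to 0.017. The median of all genes was 0.053 as deposited. Centring lowered the differences of all genes by the same amount, so the -0.11 is not to be set against that 0.053. Of the 113 measured genes of the other lists with the 4 cytosolic chaperones, 5 rose (4.42%) and 0 fell, beside 0.289% and 0.0598% of all genes. With the replicate block 3 rose and 0 fell (0.395% and 0.11% of all genes), and with array weights 11 and 8 (7.44% and 5.49%). Without both replicate 1 arrays 9 rose (7.96%) and 2 fell (1.77%), beside 1.41% and 1.43% of all genes. Of the cytosolic chaperones, 4 rose in the main fit, 3 with the replicate block and 4 without both replicate 1 arrays. Without 1 array 0 to 4 rose: 4 without naive replicate 1, 3 without ionomycin replicate 1 and 0 without any other array.

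Small differences changed sign. After quantile normalization they were -0.026 for Xbp1, 0.0094 for Ern1, 0.00057 for Hyou1, 0.035 for Txndc5, -0.070 for Herpud1, 0.041 for Syvn1 and -0.018 for Derl3. After centring they were -0.047 for Xbp1, -0.074 for Dnajb11, -0.063 for Dnajc3, -0.090 for Pdia5, -0.075 for Herpud1, -0.040 for Derl3 and -0.066 for Sec61a1. With array weights they were -0.097 for Pdia5, -0.081 for Derl3 and -0.030 for Sec61a1, and without both replicate 1 arrays 0.027 for Sdf2l1, -0.036 for Pdia5, 0.020 for Syvn1 and -0.081 for Derl3. In 15 members the sign also changed without 1 array, over ranges of -0.032 to 0.19 (Xbp1), -0.18 to 0.053 (Ern1), -0.051 to 0.044 (Hyou1), -0.060 to 0.15 (Dnajb11), -0.083 to 0.17 (Dnajc3), -0.23 to 0.25 (Sdf2l1), -0.11 to 0.034 (Pdia3), -0.047 to 0.059 (Pdia5), -0.082 to 0.019 (Txndc5), -0.084 to 0.059 (Calr), -0.097 to 0.063 (Canx), -0.13 to 0.24 (Herpud1), -0.10 to 0.020 (Sel1l), -0.097 to 0.076 (Syvn1) and -0.11 to 0.15 (Derl3). Centring lowered the difference of every gene by the same amount, from 0.048 to -0.047 for Xbp1 and from 0.17 to 0.072 for Hspa5. Its sign changes are therefore those of members with small positive differences. The cause of the other sign changes was not tested. All 4 chaperone ratios kept their direction, set mainly by the rise of the cytosolic relatives, in every setting run for them. Their exact sign-flip p with the replicate block was 0.25, the smallest that 3 pairs allow, and array weights, the eBayes options, the block of replicate 1 against the others, centring and the filter on dim genes were not run for them.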
